A study of Drosophila melanogaster with 15 samples.

Results

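The genes described here make up the DNA replication and cell cycle engine of the fly, a set of 35 genes for the replicative helicase, its loading onto origins, the replication fork, the cyclins and their kinases, and the E2F and Rbf transcription switch. They were listed by name and matched by FlyBase symbol to the gene identifiers of the count table. Of the 35 listed genes 34 were in the table, which held 8990 genes, and Orc3 was not analysed here. All 34 passed the filter on low counts. By chromosome arm, 4 of them lie on X (Mcm3, Mcm6, CycD and Rbf), 7 on 2L (Mcm10, Orc5, RnrL, CycE, Cdk1, aurB and E2f2) and 23 on neither, with 12 on 2R, 3 on 3L and 8 on 3R.

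Polyadenylated RNA was sequenced from brains of female late L3 larvae of Drosophila melanogaster kept at 25 °C, in 5 groups of 3 libraries with 3 brains in each. CDXX larvae carried the attached X chromosome C(1)DX together with a free X, so 3 copies of X, and were dissected at 8 days after egg laying. Their controls, CDXY larvae, carried C(1)DX with a Y, so 2 copies of X, and were dissected at 5 days. T2L larvae were read as C(2L)SH1/+, with 3 copies of the arm 2L, because this stated genotype was the only one left once the other labels had been matched, and they too were 8 days old. C2L larvae, their controls, carried the compound left arm C(2L)SH1 at 5 days. Oregon, a laboratory wild type strain, was the last group, with no age given. The extra chromosome arm and 3 more days of age therefore came together in both trisomies and cannot be told apart. By the genotypes given, CDXX and CDXY differed in the Y chromosome as well, which cannot be told apart either.

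In every cycle the origin recognition complex marks start sites on DNA, and the dup protein (the fly Cdt1) helps it load the 6-subunit Mcm helicase until geminin blocks dup. Cyclin E with Cdk2 then starts S phase, while cyclins A, B and B3 with Cdk1 drive mitosis once the phosphatase string (stg) has activated Cdk1. E2f1 with its partner Dp switches on S phase genes, and Rbf, the fly retinoblastoma protein, holds E2F in check, E2f2 being the repressive form. In the third instar larval brain these genes serve the neuroblasts, the stem cells of the central brain and optic lobe, and their dividing daughters, among a large number of neurons that no longer divide.

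Library totals ran between 22949943 and 28272926 counts, of which the 34 genes held 0.244% to 0.349%. The tissue label was checked against marker genes in CPM, the share of the TMM-scaled library total in counts per 1e6. The neuron genes elav, nSyb and brp ran at 251 to 551, 292 to 497 and 228 to 447 CPM over the 15 libraries. The glial gene repo stood at 102 to 178 CPM and the neuroblast gene mira at 127 to 266 CPM, while the neuroblast gene dpn reached only 4.40 to 10.1 CPM. Changes were called at an adjusted p under 0.05 in edgeR's quasi-likelihood test, adjusted by Benjamini and Hochberg over all 8981 genes tested, and all log2 fold changes are those of that fit.

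Set per kilobase of exon so that genes can be compared, the most abundant of these messages over all libraries was PCNA, the sliding clamp of the DNA polymerases, with a median of 128 CPM per kb. Cdk1, geminin and RnrS, the small subunit of ribonucleotide reductase, followed with medians of 71.6, 64.4 and 56.3 CPM per kb. The next helicase subunits had nearly the same level, with medians of 33.0 for Mcm6, 32.6 for Mcm2, 32.0 for Mcm3, 31.2 for dpa (the fly Mcm4) and 29.8 CPM per kb for Mcm5. Mcm7, the remaining subunit, stood at 9.95 CPM per kb, and 81.7% of its exon length lies opposite an antisense RNA, so that reads of the pair cannot be told apart with a library kit that does not mark strand. Origin recognition genes lay between 5.95 CPM per kb for Orc1 and 18.4 for Orc4. Some neighbours in this order, such as Mcm6, Mcm2 and Mcm3, differed by less than their spread over libraries. The levels of each gene relative to its own median are drawn in the heat map by library.

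**Figure D1:**
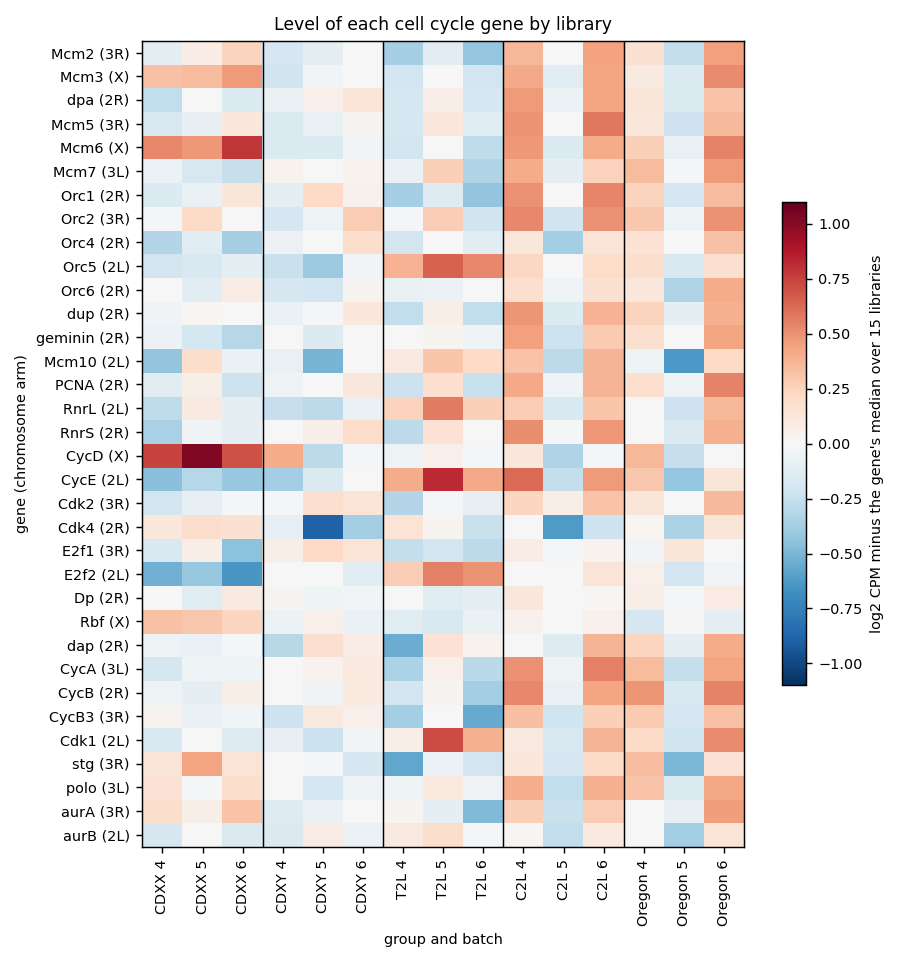
Level of each of the 34 genes (rows, with chromosome arm) in each of the 15 libraries (columns, by group and batch), as log2 CPM minus the gene's median over all libraries, red above and blue below. In CDXX the 4 genes on X lie above their medians, and in T2L most values of the genes on 2L do. Several of these genes, such as Mcm3 and CycE, are also red in C2L and Oregon outside batch 5. C2L and Oregon show a mostly blue column in batch 5.

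CDXX against CDXY shows how the cycle genes stood in brains with an extra X. Of the 34 genes, 5 were higher and 2 lower, which is 20.6% called beside 43.9% of all genes tested (23.1% higher and 20.8% lower). All 4 genes on X were among those that rose, namely the helicase subunits Mcm3 and Mcm6, the cyclin CycD and the E2F inhibitor Rbf. Cdk4 on 2R, the kinase partner of CycD, rose too, and both E2F genes fell. Across all 34 genes the median log2 fold change was −0.00078 (0.02 over all genes tested), with 17 genes above 0 and 17 below. In RNA from whole brains, a change in the share of dividing cells and a change in RNA per cell cannot be told apart.

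Mcm6 (FBgn0025815, X, 6674387 to 6677176 in dm6) had 132, 128 and 158 CPM in CDXX brains against 82.7, 83.1 and 90.003 CPM in CDXY brains. Mcm3 (FBgn0284442, X, 5323855 to 5326738) had 110.1, 112 and 122 CPM in CDXX, against 75.3, 85.9 and 87.9 in CDXY. For both helicase genes every CDXX library lay above every CDXY library. Mcm6 rose by 0.71 on the log2 scale (SE 0.18, edgeR adjusted p = 0.0066) and Mcm3 by 0.46 (SE 0.17, edgeR adjusted p = 0.042). Within batches 4, 5 and 6 the log2 difference was 0.68, 0.62 and 0.82 for Mcm6 and 0.55, 0.38 and 0.47 for Mcm3. The call for Mcm3 was lost when any single CDXX or CDXY library was left out, with an edgeR adjusted p of up to 0.139 without CDXY replicate 4. It was also lost without T2L replicate 4 or T2L replicate 6 (edgeR adjusted p = 0.0514 and 0.0521). Mcm3 thus passed under 15 of 23 alternatives, while Mcm6 passed under all 23.

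CycD (FBgn0010315, X, 15906822 to 15909676) encodes the cyclin that, with Cdk4, promotes cell growth in flies. It had 46.9, 56.8 and 45.4 CPM in CDXX libraries and 37.1, 22.9 and 27.8 CPM in CDXY libraries, with no overlap. Cdk4 (FBgn0016131, 2R) had 27.8, 29.4 and 28.9 CPM in CDXX against 24.1, 13.9 and 19.8 in CDXY. For both genes the CDXY library of batch 5 was the lowest of its group. CycD rose by 0.76 (SE 0.19, edgeR adjusted p = 0.0067), Cdk4 by 0.58 (SE 0.20, edgeR adjusted p = 0.036). Per batch the log2 differences were 0.34, 1.31 and 0.71 for CycD and 0.20, 1.08 and 0.55 for Cdk4. Without CDXY replicate 5 the Cdk4 difference was 0.39 and did not pass (edgeR adjusted p = 0.138). Its call was lost in 7 of 23 alternatives, among them each one that left out CDXX replicate 4, 5 or 6 or CDXY replicate 5 or 6. CycD was lost in 1, without replicate 5 in all groups (log2 0.51, edgeR adjusted p = 0.0558).

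Rbf (FBgn0015799, X, 797090 to 801479) was the most even of the X genes, with 119, 116 and 112 CPM in CDXX and 90.5, 98.9 and 90.2 CPM in CDXY. It rose by 0.31 (SE 0.07, edgeR adjusted p = 0.0035) and by 0.39, 0.24 and 0.31 within the batches. E2f2 (FBgn0024371, 2L, 21154293 to 21156749), which represses with Rbf, had 31.4, 33.9 and 29.0 CPM in CDXX against 45.4, 45.4 and 41.8 CPM in CDXY, where every library was higher. Its fall of −0.49 (SE 0.10, edgeR adjusted p = 0.0021) was the lowest adjusted p of the 34 genes in this comparison, and the batches gave −0.53, −0.42 and −0.53. Rbf and E2f2 passed under all 23 alternatives. E2f1 (FBgn0011766, 3R, 21620304 to 21660871), the activating form, had 304, 359 and 250.2 CPM in CDXX and 356, 398 and 379.6 CPM in CDXY, and the groups overlapped. It fell by 0.31 (log2 −0.31, SE 0.11, edgeR adjusted p = 0.033), a call that was kept in 17 of 23 alternatives. It was lost with scaling factors from genes off X and 2L (log2 −0.25, edgeR adjusted p = 0.0885), with only the groups compared, and without CDXX replicate 4, CDXX replicate 6, CDXY replicate 5 or CDXY replicate 6. Without CDXX replicate 6 the log2 fold change was −0.19 (edgeR adjusted p = 0.121). With those factors 5 of the 34 genes were higher and 1 lower. Dp, the partner of both, had 178, 162 and 191 CPM in CDXX and 182, 173 and 175 in CDXY, a log2 fold change of 0.0050 with an interval of −0.16 to 0.17.

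**Figure D2:**
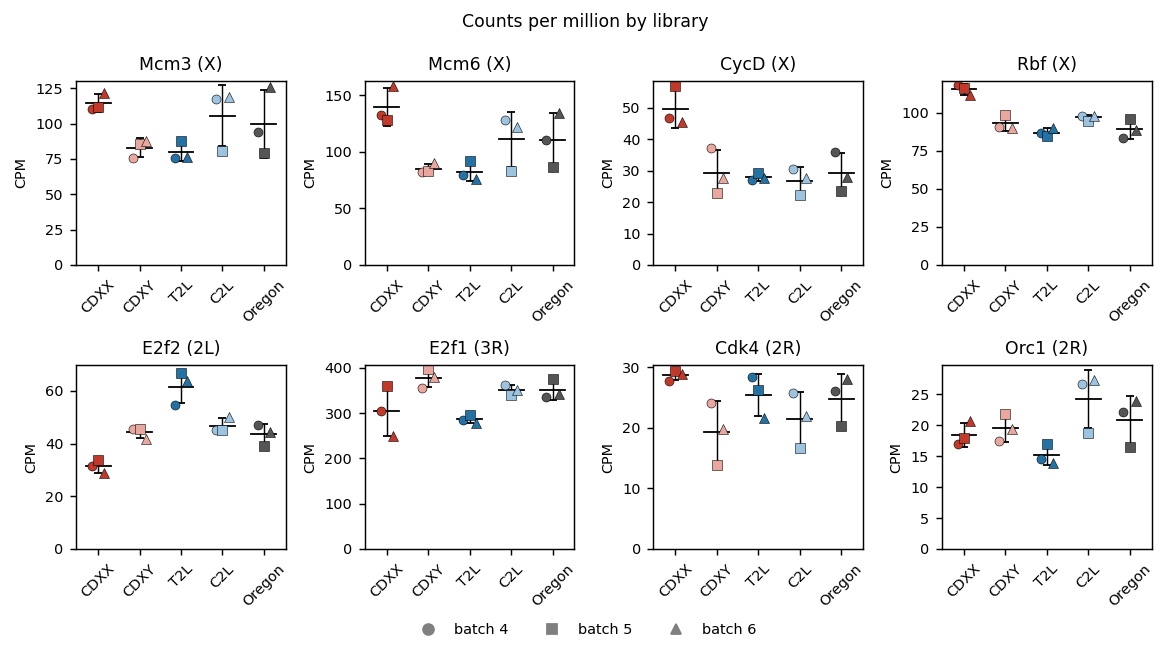
CPM in each library (points, shaped by batch) with the mean and SD of 3 libraries (bars) for 8 genes, in the order CDXX, CDXY, T2L, C2L and Oregon. Mcm3, Mcm6, CycD and Rbf on X lie above CDXY in all 3 CDXX libraries, E2f2 on 2L lies lowest in CDXX and highest in T2L, and Orc1 lies lowest in T2L on average.

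The other helicase subunits did not pass in CDXX against CDXY. Mcm2 had 87.8, 99.99 and 112 CPM in CDXX and 83.3, 87.7 and 94.9 CPM in CDXY (log2 0.17, interval −0.19 to 0.54). Values for dpa were 79.2, 95.8 and 86.4 CPM in CDXX against 91.3, 99.6 and 106 in CDXY (log2 −0.18), and Mcm5 stood at 64.6, 68.7 and 79.1 CPM in CDXX and 65.3, 69.2 and 74.8 in CDXY (log2 0.02). These 3 genes overlapped between the groups, whereas Mcm7 was slightly lower in each CDXX library (23.4, 21.6 and 20.5 CPM, against 25.0, 24.4 and 25.1 in CDXY, edgeR adjusted p = 0.39). None of the origin recognition genes passed either. Orc4 came closest, with 23.7, 27.1 and 22.99 CPM in CDXX and 28.4, 29.8 and 33.8 CPM in CDXY, lower in every CDXX library (log2 −0.32, edgeR adjusted p = 0.0793). Orc1, Orc2, Orc5, Orc6 and dup had log2 fold changes between −0.08 and 0.11, and their groups overlapped. PCNA averaged 129 ± 13.2 CPM in CDXX and 139 ± 8.34 CPM in CDXY (SD, n = 3 each), and geminin 59.998 ± 5.07 CPM in CDXX and 66.2 ± 3.95 CPM in CDXY (SD, n = 3 each), both with overlap.

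CycE, the cyclin that starts S phase, had 54.3, 60.04 and 55.9 CPM in CDXX and 57.5, 66.7 and 74.6 CPM in CDXY (log2 −0.22, edgeR adjusted p = 0.441). Its kinase Cdk2 averaged 32.7 ± 2.27 CPM in CDXX and 37.9 ± 2.67 CPM in CDXY (SD, n = 3 each), and 43.9% of its exon length lies opposite another gene. dap, the inhibitor of cyclin E with Cdk2, averaged 58.7 ± 1.14 CPM in CDXX and 60.7 ± 10.2 CPM in CDXY (SD, n = 3 each). Neither the kinase nor its inhibitor passed the test. Of the 8 mitosis genes 0 passed in edgeR's test, 0 had an unadjusted p under 0.05 and 0 passed in DESeq2. The phosphatase stg had 139, 169 and 139 CPM in CDXX against 125, 124 and 110.2 in CDXY, higher in every CDXX library without passing (log2 0.31, interval −0.11 to 0.74, edgeR adjusted p = 0.207). The spindle kinase aurA had 18.9, 17.3 and 20.6 CPM in CDXX against 14.9, 15.7 and 16.5 in CDXY, again with no overlap and not past the threshold (log2 0.27, edgeR adjusted p = 0.243). CycA, CycB, CycB3, Cdk1, polo and aurB had log2 fold changes between −0.15 and 0.19.

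Set by chromosome arm, the 4 genes on X had a median log2 fold change of 0.59 in CDXX against CDXY, or 1.50-fold, where 3 copies over 2 correspond to 0.58. All 4 were called higher, beside 57.6% of the 1564 X genes tested, whose median was 0.45. The 23 genes on neither X nor 2L had a median of −0.05, with 1 called higher and 1 lower, beside 15.7% higher and 24.3% lower among all genes off these arms. Because the scale of a library cancels in it, the difference between sets of genes within a library was also taken, as the difference of their mean log2 CPM. The 4 X genes minus the 23 other genes gave 0.74, 0.73 and 0.75 in CDXX and 0.25, 0.12 and 0.10 in CDXY, and the 12 libraries other than CDXX ran from 0.07 to 0.26. CDXX thus stood apart from every other library by this measure, 0.58 above CDXY or 1.50-fold.

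The Mcm helicase is built from 1 copy of each of 6 subunits, and 2 of their genes lie on X. Mcm3 and Mcm6 together minus the other 4 subunits gave a difference of mean log2 CPM of 1.08, 0.96 and 1.14 in the CDXX libraries. CDXY libraries gave 0.41, 0.45 and 0.43, and the 12 libraries other than CDXX lay between 0.41 and 0.64. The balance of subunit messages within the helicase was therefore shifted by 0.63 in CDXX relative to CDXY, a ratio of 1.55, and the groups did not overlap. In T2L against C2L, where no subunit gene lies on the extra arm, the same measure was 0.49 ± 0.06 in T2L and 0.47 ± 0.06 in C2L (SD, n = 3 each).

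**Figure D3:**
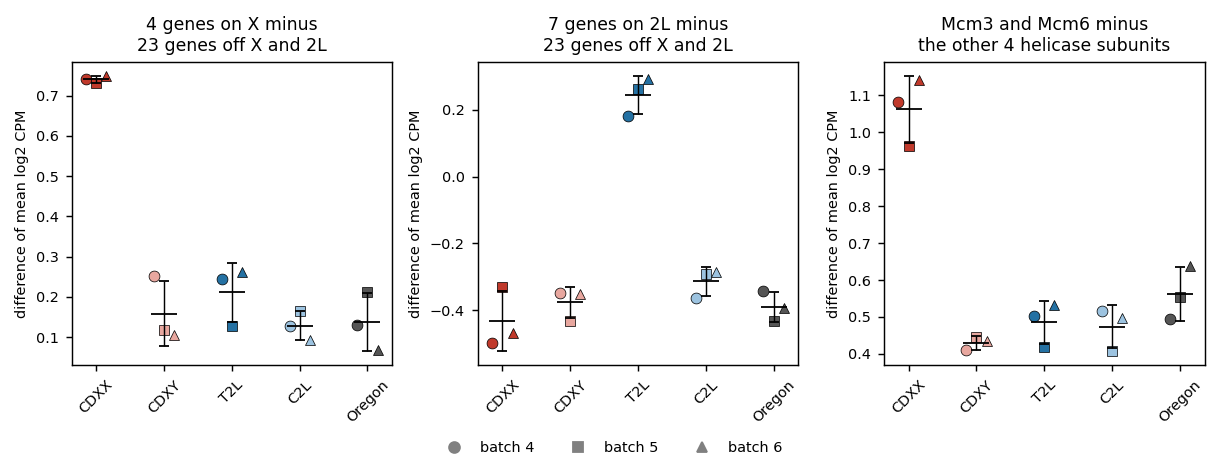
Differences of mean log2 CPM within each library for 3 pairs of gene sets, by group, with points shaped by batch and bars for the mean and SD of 3 libraries. The 3 CDXX libraries lie at 0.73 to 0.75 for the X genes and the 3 T2L libraries at 0.18 to 0.29 for the 2L genes, each apart from the 12 other libraries.

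T2L against C2L shows the cycle genes in brains with an extra 2L. The repressor E2f2, on 2L, rose, and the helicase subunit Mcm2 and the origin recognition gene Orc1, both off the arm, fell. This is 3 of 34 genes called, or 8.82%, beside 15.7% of all genes tested (11.6% higher and 4.05% lower). More genes lay below 0 than above it, 25 against 9, with a median log2 fold change of −0.26 beside −0.01 for all genes. At an unadjusted p under 0.05 there were 16 of the 34, beside 2754 of all 8981 genes tested. With the batch numbers as a replicate block the count was 5, because Orc5 (log2 0.39, edgeR adjusted p = 0.0427) and Cdk2 (log2 −0.35, edgeR adjusted p = 0.0297) were added.

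E2f2 had 54.6, 66.6 and 63.6 CPM in T2L and 45.0, 45.3 and 49.97 CPM in C2L. The groups did not overlap, the rise was 0.40 (SE 0.10, edgeR adjusted p = 0.016), and the batches gave 0.28, 0.56 and 0.35. This is the opposite of its direction in CDXX. A share of 19.9% of its exon length lies opposite Mpp6, which averaged 11.47 ± 0.488 CPM in T2L and 8.65 ± 1.35 CPM in C2L (SD, n = 3 each). In CDXX and CDXY Mpp6 averaged 6.73 ± 1.42 and 7.52 ± 0.362 CPM (SD, n = 3 each). The part of these reads in the values of E2f2 was not tested. The call for E2f2 in T2L was lost without C2L replicate 4, C2L replicate 5 or T2L replicate 5, with edgeR adjusted p values of 0.0575, 0.0537 and 0.0667, and with only the groups compared (edgeR adjusted p = 0.0537).

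Orc1 (FBgn0286788, 2R), the largest subunit of the origin recognition complex, had 14.6, 17.007 and 13.9 CPM in T2L against 26.6, 18.8 and 27.2 CPM in C2L. Mcm2 (FBgn0014861, 3R, 8264970 to 8267924) had 73.4, 87.0 and 70.6 CPM in T2L and 122, 94.5 and 128 CPM in C2L. No T2L library reached a C2L library in either gene, but the libraries of batch 5 lay close together. Orc1 fell by 0.67 on the log2 scale (log2 −0.67, SE 0.17, edgeR adjusted p = 0.019) and Mcm2 by 0.58 (log2 −0.58, SE 0.17, edgeR adjusted p = 0.036). Within batches 4, 5 and 6 the differences were −0.87, −0.14 and −0.96 for Orc1 and −0.73, −0.12 and −0.86 for Mcm2. Both calls were lost without C2L replicate 4, C2L replicate 6, T2L replicate 4 or T2L replicate 6. Mcm2 was also lost with scaling factors from genes off X and 2L (edgeR adjusted p = 0.0536), where Orc5 passed, giving 2 higher and 1 lower.

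The remaining replication genes off 2L mostly lay lower in T2L without passing. Mcm5 had 64.1, 79.2 and 66.7 CPM in T2L and 103, 73.2 and 109 CPM in C2L (log2 −0.45, edgeR adjusted p = 0.090). Values for dpa were 83.7, 101 and 83.5 CPM in T2L against 133, 91.4 and 129.5 CPM in C2L (log2 −0.40, edgeR adjusted p = 0.0965). In both genes T2L lay far below C2L in batches 4 and 6 and above it in batch 5, and so the groups overlapped. The same held for Mcm6 (log2 −0.43), Mcm3 (log2 −0.40), dup (log2 −0.41) and RnrS (log2 −0.37). PCNA had 116, 155 and 116 CPM in T2L and 182, 133 and 177 CPM in C2L (log2 −0.35, edgeR adjusted p = 0.185). Cdk2 was lower in every T2L library, with 28.1, 34.5 and 32.9 CPM against 41.5, 36.9 and 43.6 CPM in C2L, and its adjusted p of 0.05003 in edgeR's test was just over the threshold.

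On 2L itself all 7 genes had log2 fold changes above 0, with a median of 0.24. The median of all 2L genes was 0.47, and 51.9% of them were called higher, beside 1 of these 7. Orc5 (FBgn0015271, 2L, 13829837 to 13831576) had 23.6, 28.3 and 25.9 CPM in T2L and 21.1, 18.0 and 20.7 CPM in C2L, with no overlap (log2 0.38, edgeR adjusted p = 0.0568). CycE had 98.96, 132 and 99.5 CPM in T2L and 114.6, 62.1 and 103 CPM in C2L, overlapping, with a log2 fold change of 0.24 and batch values of −0.21, 1.09 and −0.05. Cdk1, the mitotic kinase, had 81.5, 128 and 101 CPM in T2L against 82.7, 68.4 and 100.4 CPM in C2L (log2 0.30). RnrL, Mcm10 and aurB had log2 fold changes of 0.22, 0.05 and 0.14. Mcm10 shares 13.0% of its exon length with Ret on the opposite strand, and Ret averaged 9.77 ± 2.29 CPM in T2L and 5.39 ± 0.510 CPM in C2L (SD, n = 3 each).

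Off both arms 22 of 23 genes lay below 0 in T2L against C2L, with a median of −0.32 beside −0.07 for all genes off these arms. The labels do not give the copy state of 2R in C2L and T2L, and 12 of the 23 genes lie there. All 1769 genes tested on 2R had a median log2 fold change of −0.06 in T2L against C2L and the 3921 on 3L and 3R one of −0.08, and the listed genes had medians of −0.27 on 2R and −0.32 on 3L and 3R. Relative to these 23 genes within the same library, the 7 genes on 2L stood at 0.18, 0.26 and 0.29 in T2L and at −0.36, −0.29 and −0.28 in C2L, as differences of mean log2 CPM. The 12 libraries other than T2L lay between −0.50 and −0.28, so T2L stood apart in all 3 batches. The shift was 0.56, or 1.47-fold.

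**Figure D4:**
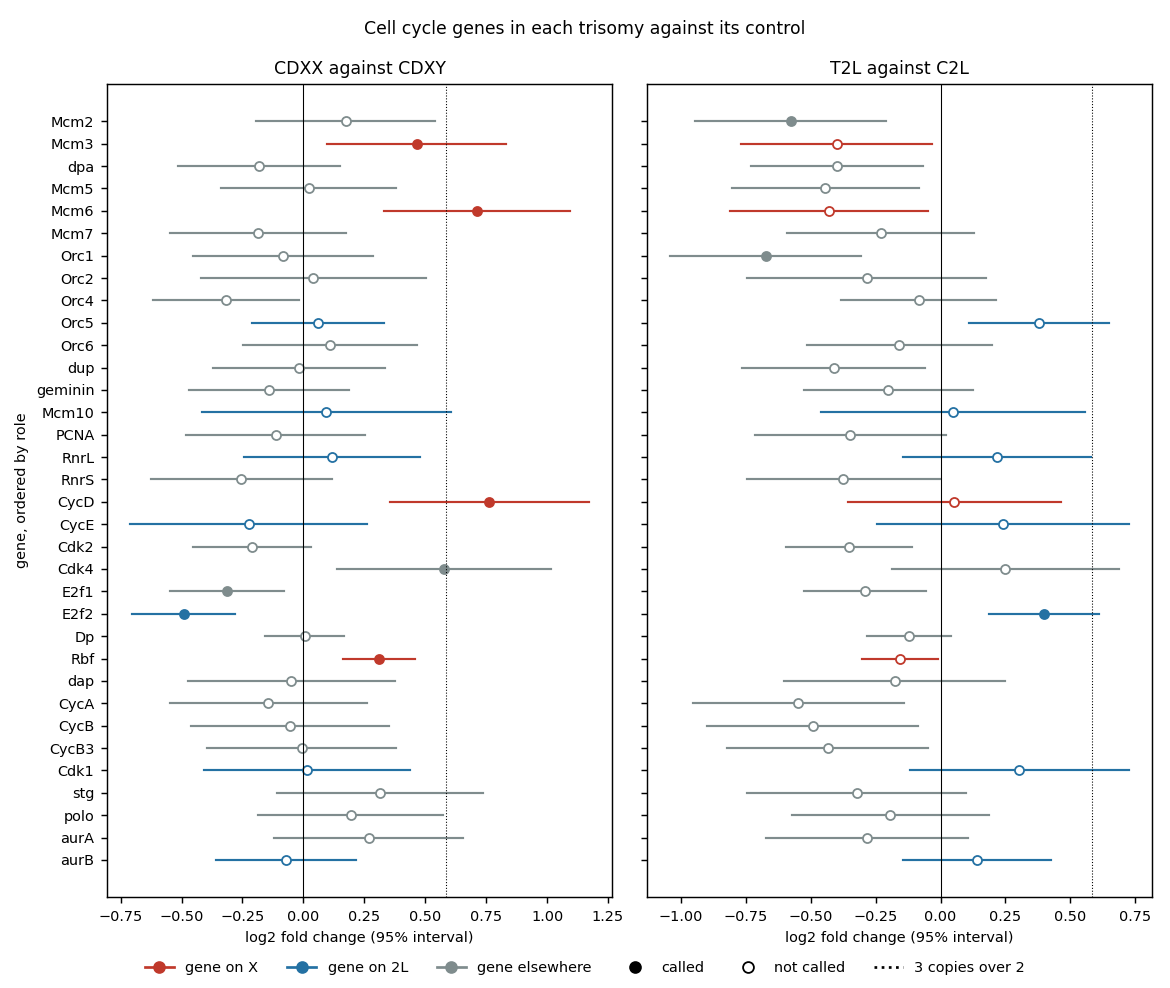
Log2 fold change of each gene with its 95% interval from edgeR, for CDXX against CDXY (left) and T2L against C2L (right), ordered by role and coloured by arm, with filled points for genes called. The red points of X lie right of 0 at left, the blue points of 2L right of 0 at right, and the grey points lie mostly left of 0 in T2L against C2L, with a dotted line at 3 copies over 2.

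The lower level of the genes off 2L in T2L differed between batches. The median log2 difference over the 23 genes was −0.56 in batch 4, 0.14 in batch 5 and −0.58 in batch 6, and for the 7 genes on 2L it was −0.02, 0.65 and −0.04. In C2L the library of batch 5 was the lowest of its group for 33 of the 34 genes, and in Oregon for 32 of 34, by a median of −0.50 and −0.43 on the log2 scale relative to the other libraries of the group. In T2L it was the highest for 29 of 34 (median 0.25), and in CDXX and CDXY it was the lowest for 8 and 12 of 34. Among all genes the library of batch 5 was the lowest in 32.7% to 40.6% of cases by group and the highest in 28.4% to 37.1%. Of the 18 neuron markers 16 were highest in the batch 5 library of C2L, with sums of 5740, 7638 and 6068 CPM in batches 4, 5 and 6, and 11 of 18 in that of Oregon, with 6285, 8296 and 6892 CPM. Of 18 genes of the ecdysone response 13 were highest in the batch 5 library of C2L and 6 in that of Oregon, beside 37.1% and 31.6% of all genes. Of 25 neuroblast markers 15 were lowest and 7 highest in the batch 5 library of C2L (median −0.18). In that of Oregon 16 were lowest and 8 highest (median −0.14), and in that of T2L 0 were lowest and 17 highest. Their sums in batches 4, 5 and 6 were 10455, 15705 and 13762 CPM in C2L and 13719, 14494 and 10779 CPM in Oregon. By these sums batch 5 was the highest library of both groups, unlike for the cycle genes, and pros, brat and Syp were the most abundant in them. The neuroblast genes of the tissue check were lowest in batch 5 of both groups. In batches 4, 5 and 6 mira had 250, 187 and 266 CPM in C2L and 249, 155 and 238 CPM in Oregon. In the same order dpn had 8.81, 6.33 and 9.49 CPM in C2L and 9.55, 5.65 and 10.1 CPM in Oregon. The part of neuroblast or neuron content and of hormone response in these values was not tested.

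Without C2L replicate 5 the count of cycle genes called in T2L against C2L was 10, all lower, and without replicate 5 in all groups, a check chosen after seeing the data, it was 12, all lower. In that check CycA (log2 −0.85, edgeR adjusted p = 0.0145), CycB (log2 −0.77, edgeR adjusted p = 0.0146), dup (log2 −0.71, edgeR adjusted p = 0.0165) and PCNA (log2 −0.63, edgeR adjusted p = 0.0341) were among them, while E2f2 was not called (log2 0.32, edgeR adjusted p = 0.134). Without C2L replicate 4 the count was 0 in edgeR's test. Without C2L replicate 6, T2L replicate 4 or T2L replicate 6 it was 1 each, and without Oregon replicate 5, which enters only through the shared estimate of the spread, it was 7. In CDXX against CDXY the X genes had within-batch medians of 0.47, 0.50 and 0.59 and the 23 genes off both arms of −0.03, −0.06 and −0.10. The count of calls in CDXX against CDXY was 4 without CDXX replicate 4, CDXX replicate 6, CDXY replicate 5 or CDXY replicate 6. Here and below, counts with libraries left out are given without the share of all genes called in the same refit. Whether their changes are particular to the cycle genes was therefore not tested.

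The mitosis genes in T2L against C2L gave 0 calls in edgeR's test and 1 in DESeq2, CycA, and 3 of the 8 had an unadjusted p under 0.05 in edgeR. CycA had 116, 153 and 119.9 CPM in T2L and 209, 143 and 216 CPM in C2L (log2 −0.55, edgeR adjusted p = 0.0666). CycB had 92.8, 109 and 82.7 CPM in T2L against 155, 101 and 145 in C2L (log2 −0.49, edgeR adjusted p = 0.0954), and CycB3 64.2, 83.4 and 56.8 CPM in T2L against 105, 71.8 and 99.9 in C2L (log2 −0.44, edgeR adjusted p = 0.120). In all 3 mitotic cyclins the libraries of batches 4 and 6 were the highest in C2L and the lowest in T2L, and in batch 5 T2L lay above C2L. stg, polo and aurA had log2 fold changes of −0.32, −0.19 and −0.28. Among the G1 to S regulators E2f1 was lower in every T2L library, with 285, 295 and 279 CPM against 362, 339 and 350.0 CPM in C2L (log2 −0.29, edgeR adjusted p = 0.0876). Rbf was lower as well, with 86.5, 84.6 and 89.98 CPM in T2L and 98.0, 94.9 and 98.1 CPM in C2L (log2 −0.16, edgeR adjusted p = 0.139), and its batch values of −0.18, −0.17 and −0.12 were close. CycD and Cdk4 had log2 fold changes of 0.05 and 0.25, dap of −0.18 and Dp of −0.12.

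The difference between the effects, CDXX minus CDXY less T2L minus C2L, was tested directly. It passed for 5 of the 34 genes, beside 22.3% of all genes (10.5% positive and 11.8% negative). It was positive for Mcm6 (log2 1.14, SE 0.25, edgeR adjusted p = 0.0059), Mcm3 (log2 0.86, SE 0.24, edgeR adjusted p = 0.021), Mcm2 (log2 0.75, SE 0.24, edgeR adjusted p = 0.040) and Rbf (log2 0.47, SE 0.10, edgeR adjusted p = 0.0043), and negative for E2f2 (log2 −0.89, SE 0.14, edgeR adjusted p = 0.0011). Of these, Mcm2 lies on neither extra arm. The count was 3 without C2L replicate 4, C2L replicate 6 or T2L replicate 6, 11 without C2L replicate 5 and 13 without replicate 5 in all groups.

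Both trisomies were dissected at the same age, so CDXX against T2L compares them without the difference in days. In edgeR's test 7 of the 34 genes were called, or 20.6%, beside 37.6% of all genes (18% higher and 19.6% lower), and all 7 lie on X or 2L. Mcm3, Mcm6, CycD and Rbf were higher in CDXX by 0.52, 0.76, 0.83 and 0.41 on the log2 scale. E2f2 averaged 31.5 ± 2.44 CPM in CDXX and 61.6 ± 6.21 CPM in T2L (SD, n = 3 each; log2 −0.97, edgeR adjusted p = 2.4e-05). CycE averaged 56.7 ± 2.96 CPM in CDXX and 110.2 ± 19.0 CPM in T2L (SD, n = 3 each; log2 −0.96, edgeR adjusted p = 0.0054), and Orc5 16.2 ± 0.544 CPM in CDXX and 25.9 ± 2.39 CPM in T2L (SD, n = 3 each; log2 −0.68, edgeR adjusted p = 0.0010). The 23 genes on other arms had a median of 0.06 and 0 calls in edgeR's test, with 2 at an unadjusted p under 0.05, stg (log2 0.52) and Mcm2 (log2 0.38). DESeq2 called 1 of the 23, stg (DESeq2 adjusted p = 0.0267). Without Oregon replicate 5 the count of calls over all 34 genes was 11, and without replicate 5 in all groups it was also 11.

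Against Oregon the trisomies gave fewer calls. CDXX had 4 of 34 genes called beside 35.3% of all genes (18.7% higher and 16.6% lower). CycD and Rbf were higher (log2 0.77, edgeR adjusted p = 0.0087, and log2 0.37, edgeR adjusted p = 0.0017), and E2f2 and Orc4 were lower (log2 −0.47, edgeR adjusted p = 0.0037, and log2 −0.44, edgeR adjusted p = 0.028). Mcm3 and Mcm6, the other genes on X, were not called against Oregon (log2 0.20 and 0.34). Mcm3 ran from 110 to 122 CPM in CDXX and 79.2 to 126 CPM in Oregon. Mcm6 ran from 128 to 158 CPM in CDXX and 87.0 to 134 CPM in Oregon. In CDXY against Oregon the log2 fold changes of Mcm3 and Mcm6 were −0.26 and −0.38, not called. T2L had 2 of 34 called beside 13% of all genes (10.3% higher and 2.68% lower), both on 2L and higher, E2f2 (log2 0.50, edgeR adjusted p = 0.0049) and Orc5 (log2 0.45, edgeR adjusted p = 0.032). With only these groups in the edgeR fit the count for T2L was 0. Oregon replicate 5 bears on both counts, since without it they were 10 and 7, and without replicate 5 in all groups 12 and 11, and the age of the Oregon larvae is not given. These comparisons share the Oregon libraries with each other and the trisomy libraries with the comparisons above.

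Between the euploid groups 0 of the 34 genes were called, in edgeR's test as in DESeq2. CDXY against Oregon gave 1 gene at an unadjusted p under 0.05, Orc5 (log2 −0.29), beside 1022 of all 8981 genes. C2L against Oregon gave 0 at an unadjusted p under 0.05, beside 904 of all 8981 genes. CDXY against C2L gave 5 at that unadjusted level (Mcm2, Mcm5, Mcm6, Orc5 and CycE, log2 −0.36 to −0.49), beside 1138 of all 8981 genes. At the adjusted threshold 0.857%, 2.14% and 2.74% of all genes were called in these comparisons, in that order. In CDXY against C2L 30 of 34 genes lay below 0, with a median of −0.24.

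Genes of S phase were then set against genes of mitosis within each library. The mean log2 CPM of 16 S phase genes (the helicase, its loading, the fork and ribonucleotide reductase) ran from 5.34 to 5.91 over the 15 libraries, and that of 8 mitosis genes from 6.09 to 6.71. Oregon replicate 5 was the lowest library and Oregon replicate 6 the highest by either mean. Their difference, S phase minus mitosis, kept within −0.92 to −0.72. It averaged −0.86 ± 0.06 in CDXX and −0.83 ± 0.07 in CDXY, −0.77 ± 0.03 in T2L and −0.74 ± 0.03 in C2L, and −0.82 ± 0.08 in Oregon (SD, n = 3 each). The trisomies differed from their controls by −0.02 in CDXX and −0.03 in T2L, less than the spread of the libraries.

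That near equality in CDXX included Mcm3 and Mcm6. Over the 11 S phase and 6 mitosis genes on neither X nor 2L, a choice made after seeing the data, the difference was −1.18, −1.05 and −1.14 in CDXX and −1.01, −0.96 and −0.88 in CDXY. CDXX lay lower in all 3 libraries than CDXY, with a shift of −0.17. Against Oregon, at −1.09 to −0.90, the CDXX libraries overlapped, with a shift of −0.14. In T2L and C2L the same measure averaged −0.91 ± 0.03 and −0.93 ± 0.02 (SD, n = 3 each), a difference of 0.018 with overlap. In CDXX against CDXY 3 of these 6 mitosis genes lay above 0 (stg, aurA and polo) and 3 below (CycA, CycB and CycB3). Of the 11 S phase genes 4 lay above 0 (Mcm2, Mcm5, Orc2 and Orc6) and 7 below, with log2 fold changes between −0.32 for Orc4 and 0.17 for Mcm2.

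**Figure D5:**
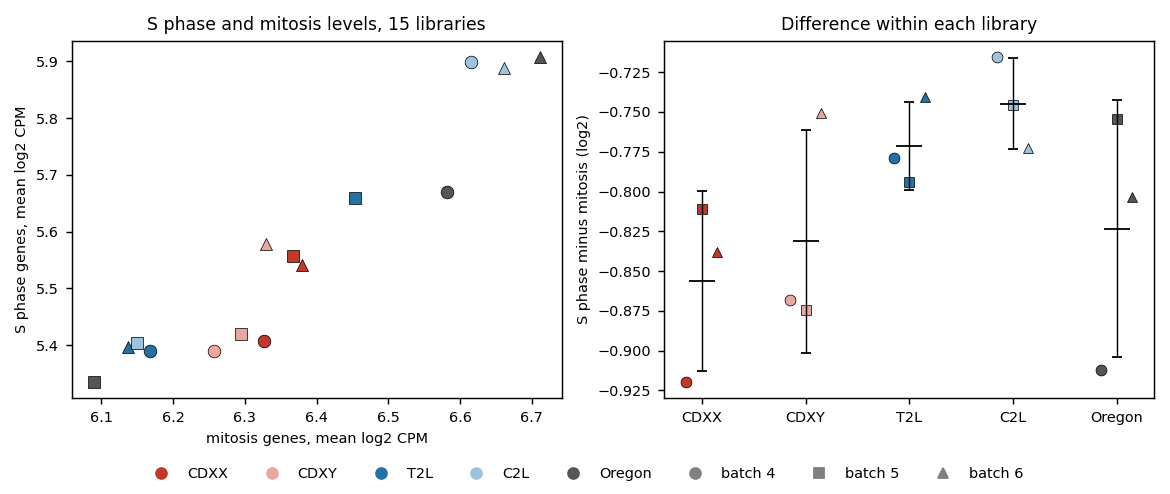
Left, mean log2 CPM of 16 S phase genes against that of 8 mitosis genes in each of the 15 libraries, coloured by group and shaped by batch. Right, the difference of the means within each library, with bars for the mean and SD of 3 libraries. The levels spread over 5.34 to 5.91 and 6.09 to 6.71, while the difference stays within −0.92 to −0.72.

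Further genes of the same pathways were taken from lists of replication, mitosis and cycle regulator genes. Of 35 further replication genes measured, 5 rose and 1 fell in CDXX against CDXY, with a median of 0.17, beside 23.1% higher and 20.8% lower among all genes tested. On X 4 of 5 rose, beside 57.6% of all X genes. Psf3, a subunit of the GINS complex of the active helicase, averaged 12.8 ± 0.974 CPM in CDXX and 6.63 ± 0.427 CPM in CDXY (SD, n = 3 each; log2 0.95, edgeR adjusted p = 0.00029). Cdc45, the other helicase partner, averaged 65.3 ± 4.07 CPM in CDXX and 36.9 ± 1.42 CPM in CDXY (SD, n = 3 each; log2 0.82, edgeR adjusted p = 0.0015). Both lie on X, so that with Mcm3 and Mcm6 these are further parts of the same helicase that were higher, as was Caf1-180 of the histone chaperone CAF-1 (X, log2 0.73, edgeR adjusted p = 0.0018). chif, the fly Dbf4 that activates the Cdc7 kinase, was lower (2L, 107 ± 1.18 CPM in CDXX and 136 ± 6.08 CPM in CDXY, SD, n = 3 each; log2 −0.35, edgeR adjusted p = 0.0043).

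Of 42 further mitosis genes 7 rose and 3 fell in CDXX against CDXY, beside 23.1% and 20.8% of all genes, and all 4 on X rose. feo, a spindle midzone protein, averaged 169 ± 24.3 CPM in CDXX and 77.2 ± 0.239 CPM in CDXY (SD, n = 3 each; log2 1.13, edgeR adjusted p = 0.00037). The kinetochore gene Ndc80 (log2 0.98, edgeR adjusted p = 0.00072) and the spindle orientation gene mud (log2 0.86, edgeR adjusted p = 0.0030) rose as well, and the checkpoint gene Mad1 on 2R fell (log2 −0.56, edgeR adjusted p = 0.00049). Of 35 further cycle regulators 13 rose and 8 fell, with 9 of 10 on X higher. Myc, the growth regulator on X, had 366, 467 and 442 CPM in CDXX against 135, 139 and 160.3 CPM in CDXY, a rise of 1.55 (SE 0.17, edgeR adjusted p = 0.00013) that was larger than the 0.58 of 3 copies over 2. Cdk7, the kinase that activates other cyclin kinases (X, log2 1.03, edgeR adjusted p = 0.00019), and lin-52, a subunit of the complex that holds E2f2 and Rbf (X, log2 0.71, edgeR adjusted p = 0.00019), rose, and the ubiquitin ligase scaffold Cul1 on 2R fell (log2 −0.74, edgeR adjusted p = 0.00024).

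In T2L against C2L 1 of the 35 further replication genes rose and 7 fell, beside 11.6% higher and 4.05% lower among all genes tested, and all 23 on neither arm lay below 0 (median −0.32), 6 of them called. Fen1, the flap nuclease of lagging strand synthesis, had 25.8, 27.6 and 26.8 CPM in T2L and 41.6, 33.2 and 50.7 CPM in C2L (log2 −0.65, edgeR adjusted p = 0.014). The primase subunit Prim2 (log2 −0.60, edgeR adjusted p = 0.021) and Caf1-105 (log2 −0.47, edgeR adjusted p = 0.022) fell in the same way, and chif on 2L rose (log2 0.35, edgeR adjusted p = 0.011). Of the 42 further mitosis genes 3 rose and 1 fell. Those that rose lie on 2L, namely Wee1, the kinase that inhibits Cdk1 (64.1 ± 1.97 CPM in T2L and 43.5 ± 1.96 CPM in C2L, SD, n = 3 each; log2 0.56, edgeR adjusted p = 0.0041), the Cdc25 phosphatase twe (log2 0.64, edgeR adjusted p = 0.016) and the securin pim (log2 0.58, edgeR adjusted p = 0.040). The fall was in scra, the fly anillin (2R, log2 −0.41, edgeR adjusted p = 0.012). Of the 35 regulators 5 rose and 2 fell, with CycK (log2 0.53), Rca1 (log2 0.55) and CycY (log2 0.41) on 2L among the rises and Cdc16 (3R, log2 −0.44, edgeR adjusted p = 0.014) among the falls. In C2L replicate 5 was the lowest library for 32 of the 35 replication and 37 of the 42 mitosis genes, and in Oregon for 28 and 35, whereas in T2L it was the highest for 21 and 25. For the cycle regulators it was the lowest for 17 of 35 in C2L and 14 of 35 in Oregon. Among all genes replicate 5 was the lowest for 40.6% in C2L and 35.5% in Oregon, and the highest for 28.4% in T2L.

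Markers of the cell types and tissues that the brains can hold are given beside these results. In CDXX against CDXY, of 25 neuroblast markers 8 were higher and 5 lower, beside 23.1% and 20.8% of all genes, with sums of 11721 to 12959 CPM in CDXX and 9882 to 16066 CPM in CDXY, which overlapped. Of 13 glial markers 4 were higher and 1 lower, and their sums did not overlap, at 2893 to 2974 CPM in CDXX and 1562 to 1858 CPM in CDXY. Their median log2 fold change was −0.04, and Gs2, nrv2 and bnb were the most abundant in the sum. Of 18 neuron markers 3 were higher and none lower, with sums of 7013 to 7787 CPM in CDXX and 6074 to 7922 CPM in CDXY. Among 18 ecdysone response genes 12 were lower and 1 higher, with sums of 2182 to 3791 CPM in CDXX and 4156 to 6252 CPM in CDXY. Among markers of tissue that may be carried along at dissection, 9 of 13 muscle and 4 of 11 hemocyte markers were higher. Muscle sums were 438, 909 and 565 CPM in CDXX and overlapped the 394 to 444 CPM in CDXY. Hemocyte sums were 1005, 883 and 2843 CPM in CDXX and 252 to 593 CPM in CDXY. Of 12 imaginal disc markers 1 was higher and 3 lower, of 8 fat body markers 1 was higher and 1 lower, and of 5 ring gland markers 0 were called. In T2L against C2L 3 of 13 glial markers were higher and none lower, with sums of 1832 to 2946 CPM in T2L and 1243 to 1934 CPM in C2L. Of 25 neuroblast markers 1 was higher and 1 lower, with a median log2 fold change of −0.07. Their sums overlapped, at 9729 to 12761 CPM in T2L and 10455 to 15705 CPM in C2L. Of these, mira had 147, 185 and 137 CPM in T2L and 250, 187 and 266 CPM in C2L in batches 4, 5 and 6. In the same order dpn had 4.66, 8.28 and 4.40 CPM in T2L and 8.81, 6.33 and 9.49 CPM in C2L. Of the 18 ecdysone genes 0 were called higher and 0 lower, with a median log2 fold change of −0.18. Their sums did not overlap, at 3236 to 3901 CPM in T2L and 4076 to 5324 CPM in C2L, and br, Eip75B and Eip93F were the most abundant in them. The sums of 8 fat body markers did not overlap either, at 1292 to 1301 CPM in T2L and 841 to 1044 CPM in C2L, with 1 marker higher and 1 lower. Their median log2 fold change was −1.33, opposite in direction to the sum, in which FASN1, apolpp and Mtp were the most abundant. Of 13 muscle markers 2 were higher and none lower, with a median log2 fold change of 1.29. The part of cell composition, hormone response and carried tissue in the changes of the cycle genes was not tested.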

How the data were processed

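The deposited table holds whole-number read counts per gene for 15 libraries, not normalized by the authors. The tools named in the submitters' processing notes are Trim Galore, STAR 2.7.10a (build dm6) and featureCounts. How strand, reads with several matches and low genes were treated is not given in the sources used here. No gene of the table had a mean count under 27. The NEBNext Ultra II RNA kit named in the labels' protocols does not mark strand, so overlapping genes on opposite strands cannot be told apart. Symbols, arms and exon lengths came from an annotation on dm6 coordinates, matched by gene identifier.

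Counts were fitted in edgeR 4.0.16 (R 4.3.3) with glmQLFit (robust) and glmQLFTest, scaled by TMM, with a mean for each of the 5 groups. The filter filterByExpr removed 9 genes and left 8981. Tests were two-sided, without a covariate, and adjusted by Benjamini and Hochberg over all genes tested. The biological coefficient of variation was 24.9%. CPM use TMM-scaled totals, and mean log2 CPM a prior count of 2. Intervals are 95% intervals of the fit. Groups come from the genotype labels, with T2L matched by elimination. Replicates of a group were no repeats of one another, since the variance between them exceeded counting noise 57.2 to 199.8-fold by pair of libraries, as a mean over genes. Per the series' design text replicates came from different days, each with its own brains, and p-values measure that spread.

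The labels give each library a batch number, shared across groups, and this pairs libraries. The sources used here do not say whether a number is the same day in every group. Deviations from group means had a median correlation of 0.13 over 30 pairs of the same batch (16 over 0.1) and −0.07 over 60 pairs of different batches (17 over 0.1). The fit was tested on simulated counts with known changes.

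All listed genes in the table were described. From the further lists up to 4 genes each with the lowest adjusted p were named per main comparison. The members and lists were chosen with earlier results of these data known. Differences between sets of genes within a library were given without a test. Alternatives were DESeq2 1.42.0 (Wald test, or its size factors in edgeR), no filter, at least 10 counts in 3 libraries, scaling by genes outside X and 2L, only the groups compared, the batch as a block, a prior count of 0.5, and leaving out each library. Leaving out replicate 5 everywhere and limiting S phase and mitosis genes to those off X and 2L were added after seeing the data.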

Additional observations from a re-analysis of the deposited data

Results flagged for a closer look

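The change from control to trisomy, which includes 3 days of age, differed between CDXX against CDXY and T2L against C2L for 5 of the 34 cycle genes. This was by an edgeR test of the difference itself, which passed for 22.3% of all genes. The log2 difference of effects was 1.14 for Mcm6, 0.86 for Mcm3 and 0.47 for Rbf, which lie on X, and 0.75 for Mcm2 on 3R. For E2f2 on 2L it was −0.89.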

How the results depend on the processing

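Over 1564 comparisons of a single gene's result under another setting, 1491 kept direction and side of the threshold, 37 passed newly, 36 no longer passed and 0 were opposite in direction for a called gene. The count of cycle genes called in T2L against C2L, 3 in edgeR, was 7 with the Wald test of DESeq2 and 5 with the replicate block, which changed no other count by over 1.5 times. In T2L against Oregon it was 0 in place of 2 with only the groups compared. Leaving out replicate 5 in all groups, chosen after seeing the data, gave 12 calls in T2L against C2L, 12 in CDXX against Oregon, 11 in T2L against Oregon, 11 in CDXX against T2L and 13 for the difference of effects. Leaving out 1 library at a time gave 4 to 8 calls in CDXX against CDXY, 0 to 10 in T2L against C2L, 3 to 10 in CDXX against Oregon, 1 to 7 in T2L against Oregon, 6 to 11 in CDXX against T2L, 3 to 11 for the difference and 0 between the euploid groups. The share of all genes called in the same refits is not given here. S phase minus mitosis ran from −0.05 to 0.02 in CDXX against CDXY and from −0.04 to −0.01 in T2L against C2L when a library was left out, and was −0.17 and 0.018 over genes off X and 2L. The cause was not tested. Factors from genes off X and 2L moved the median of all genes by up to 0.08. No search for promoter motifs was run. The 3 libraries a group limit the precision more than depth does, since over all genes the variance between replicates was at least 57.2 times the sampling variance.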
